A study of Mus musculus with 4 samples.

Results

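The genes of the integrins, the laminins and fibronectin were examined in mouse bone marrow stromal cells with and without deletion of Setd2. All rows of the deposited table that are typed as messenger RNA and carry the symbol of an integrin alpha or beta subunit, a laminin alpha, beta or gamma chain, or Fn1 were taken. They numbered 38 of the 44788 genes in the table: 13 alpha and 6 beta integrins, 7 leukocyte integrins kept apart, 5 laminin alpha, 3 beta and 3 gamma chains, and Fn1. The cells came from Setd2 fl/fl mice (strain C57BL/6J), in which loxP sites flank part of both copies of Setd2, the gene of the methyltransferase that trimethylates lysine 36 of histone H3. At passage 2 they received a lentivirus with Cre recombinase, which removes the floxed part (2 libraries), or with GFP as the control (2 libraries). Cells of both groups carry the floxed allele and a lentivirus, and both were selected for 4 days in 2 µg/ml puromycin. GFP was the only control, so loss of Setd2 and the presence of Cre cannot be told apart. Whether equal-treated libraries are separate cultures or animals is not stated in the labels, so p-values here cover the spread between libraries alone, and that spread may be technical.

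Integrins are receptors made of an alpha and a beta subunit that tie the extracellular matrix to the actin cytoskeleton. Fibronectin is a matrix glycoprotein that cells assemble into fibrils largely through the integrin of Itga5 and Itgb1, and laminins are cross-shaped trimers of an alpha, a beta and a gamma chain that form basement membranes. In bone marrow, stromal cells lay down these proteins and hold on to them through their own integrins. The leukocyte integrins are those of blood cells, which use some of the other integrins, such as that of Itga4, as well.

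The libraries held between 12371994 and 14315903 counts, and a count of 3, taken as the floor, was worth 0.207 to 0.255 CPM (the read count normalized to the scaled library size). Setd2 stood at 38.1 and 32.3 CPM in the Cre libraries, against 107 and 106 CPM in the GFP libraries, as the labels require. Without GFP replicate 2 the change on the log2 scale was -1.59 (adjusted p = 0.124). The 12 stromal markers all had at least 1 CPM in mean, among them Pdgfrb (365 and 382 CPM with Cre, 386 and 389 CPM with GFP). Of these markers 3 were called higher in Cre (Col1a1 at 0.52, Col1a2 at 0.29 and Thy1 at 0.61 on the log2 scale) and 1 lower (Cxcl12 at -0.28), and in the fits that left out a GFP library edgeR called 0 of them. Without Cre replicate 1 there were 3 and 0, and without Cre replicate 2 there were 2 and 0. In the fit on all 4 libraries, 3.74% of all tested genes were called higher and 3.22% lower. Markers of macrophages were present as well: each of 17 had a mean of at least 1 CPM. All 8 epithelial and all 8 lymphocyte markers lay under 1 CPM, as did 4 of 8 endothelial, 4 of 8 platelet and 6 of 8 neutrophil markers. Reads of Rn18s-rs5, an 18S ribosomal RNA gene, made up 1.35% and 1.21% of the Cre libraries, against 2.07% of GFP replicate 1 and 7.45% of GFP replicate 2. Fitted on messenger RNA rows alone, without such RNAs, the members gave the same calls, 1 higher and 0 lower, as reported below for all rows.

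Itga5, the alpha subunit of the main fibronectin receptor, rose in the Cre libraries, and no other tested gene among these adhesion genes passed the test. Of the 38 genes, 32 passed the filter on low counts, 1 was called higher (Itga5) and 0 lower in Cre at an adjusted p of 0.05. Over all 14483 tested genes 6.97% were called, 3.74% higher and 3.22% lower, so 1 of 32 is near the share of the whole table called higher. At an unadjusted p under 0.05, 31.25% of the 32 tested members differed, 4 upwards (Itga5 and 3 others) and 6 downwards. Over all tested genes this held for 20.9%, with 10.6% upwards and 10.4% downwards. The median absolute log2 fold change was 0.17 for the tested members and 0.12 for all tested genes. The median log2 fold change (Cre over GFP) of the 32 was 0.07, against -0.0045 over all tested genes. Both Cre libraries lay above both GFP libraries for 11 of the 32 and below them for 10, against 24.5% and 25.5% of all tested genes. The number of calls rests on the GFP libraries: without GFP replicate 1, and without GFP replicate 2, edgeR called 0 members, in fits that called 12 and 0 genes of the whole table. DESeq2 on all libraries called 1 member, Itga5. Of the members with values reported here, it gave no adjusted p for Itga10, Itga2b, Itgax, Itgb4, Itgb7, Itgb8 and Lamb3.

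**Figure D1:**
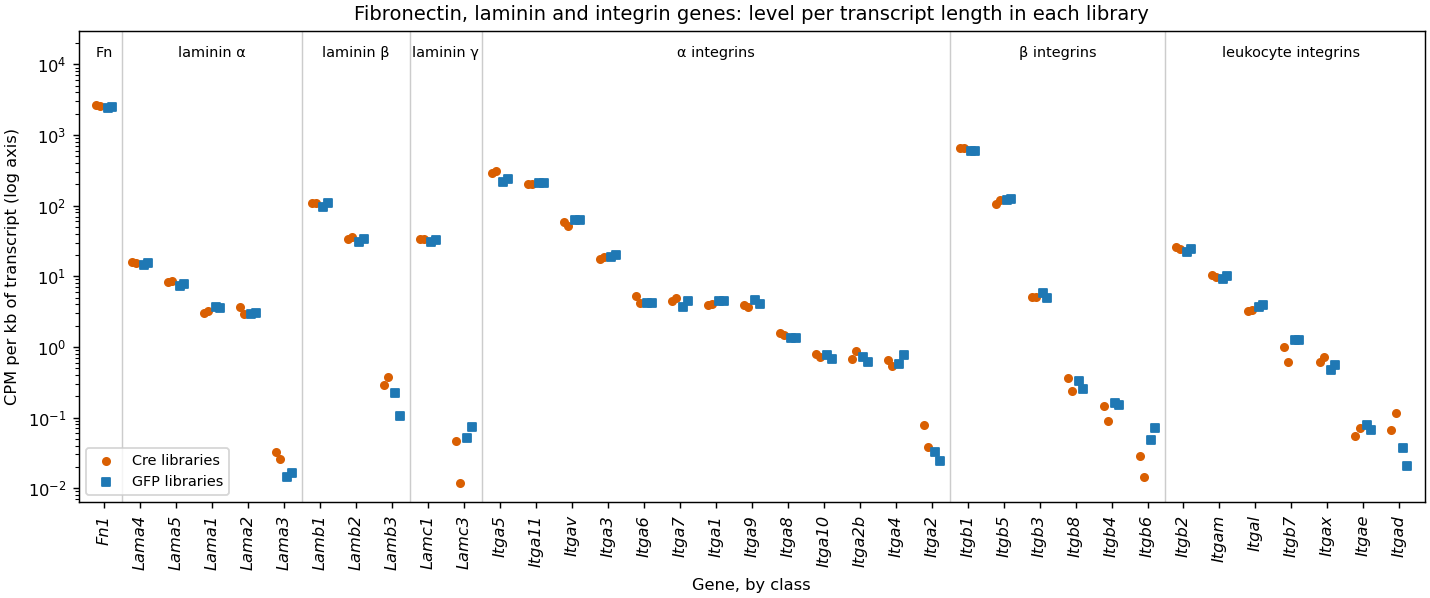
Level of the fibronectin, laminin and integrin genes in CPM per kilobase of its longest transcript, on a log axis, by class; each point is 1 library (circles, Cre; squares, GFP). The 4 libraries of most genes lie close together, from Fn1 at a mean of 2502 CPM per kb down to genes with a few counts, and for Itga5 the 2 Cre points lie above the 2 GFP points.

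Among the ligands, Fn1 had the highest level of the members. It lies on the minus strand of chromosome 1 from 71585473 to 71653280 (GRCm38). It had 21953 and 21145 CPM in the Cre libraries, against 19703 and 20414 CPM in the GFP libraries. The Cre libraries were thus the higher ones and the groups did not overlap, but the gap was small. The log2 fold change was 0.10 (standard error 0.05, adjusted p = 0.241), with a 95% interval from -0.00040 to 0.21 that is not adjusted for the number of genes. With a correction of each library for transcript length and GC content the value was 0.13 (adjusted p = 0.00485), so the call for Fn1 depends on that setting. Per kilobase of its longest transcript, Fn1 ranked 3 among 13830 tested genes with a known length, at a mean level of 2502 CPM per kb over the 4 libraries. The thrombospondin gene Thbs1, from the list of other integrin ligands, was at a like level, with 2397 and 2299 CPM per kb with Cre and 2627 and 2593 CPM per kb with GFP, above Fn1 in both GFP libraries. Fn1 took 2.22% and 2.14% of all counts with Cre and 2.02% and 1.94% with GFP.

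The laminin chains showed that the cells make transcripts for every position of the trimer. Levels of different chains are compared per transcript length. Lamb1, a beta chain found in many laminins, had the highest level of the family, with 108 and 108 CPM per kb in Cre and 96.9 and 107 CPM per kb in GFP. Lamb2, the beta chain of muscle and kidney basement membranes, followed at 34.0 and 35.9 CPM per kb with Cre and 30.9 and 33.3 CPM per kb with GFP. Lamc1, the gamma chain shared by most laminins, stood at 33.6 and 33.6 CPM per kb with Cre and 30.3 and 32.3 CPM per kb with GFP, level with Lamb2. Lama4, an alpha chain of mesenchymal and vascular laminins, led the alpha chains (15.9 and 15.2 CPM per kb with Cre, 14.4 and 15.4 CPM per kb with GFP). Next came Lama5, an alpha chain of epithelial and vascular basement membranes (8.41 and 8.45 CPM per kb with Cre, 7.30 and 7.69 CPM per kb with GFP). Summed over chains, the beta class exceeded the gamma class 4.08- and 4.15-fold in the Cre libraries and 4.06- and 4.18-fold in the GFP libraries. The alpha class reached 0.888 and 0.856 of the gamma class with Cre and 0.898 and 0.879 with GFP. The balance of the classes therefore overlapped between the groups. Because the longest annotated transcript stands for each gene, these ratios shift if shorter transcripts are used.

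None of the 9 laminin chains that could be tested was called by edgeR. DESeq2 called none either, but it gave no adjusted p for Lamb3. At an unadjusted p under 0.05 in edgeR there were 3 (Lama1, Lama5 and Lamb3). Of all tested genes, 20.9% had such a p. The 3 chains of highest level had positive values of similar size, none of which passed. In CPM, Lamb1 had 626 and 626 with Cre and 561 and 622 with GFP (log2 fold change 0.08, standard error 0.06, adjusted p = 0.513). Lamc1 had 256 and 256 CPM with Cre and 231 and 246 CPM with GFP (0.10, adjusted p = 0.379). Lamb2 had 191 and 202 CPM with Cre and 174 and 188 CPM with GFP (0.12, adjusted p = 0.280). For each of these 3 chains GFP replicate 1 was the lowest library.

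The alpha chains had values of both signs. Lama5 had 95.8 and 96.2 CPM with Cre and 83.1 and 87.6 CPM with GFP, without overlap (log2 fold change 0.17, standard error 0.07, adjusted p = 0.124). Lama1, the alpha chain of embryonic basement membranes, lay the other way, with 29.2 and 30.5 CPM in Cre and 34.9 and 34.0 CPM in GFP (-0.21, standard error 0.09, adjusted p = 0.148). Lama4 gave 0.06 (adjusted p = 0.680) and overlapped between the groups. Lama2, the alpha chain of muscle laminin, had 35.4 and 28.5 CPM with Cre and 28.1 and 28.8 CPM with GFP, so its value of 0.17 (adjusted p = 0.333) rested on Cre replicate 1. Without that library it was 0.0091. With the correction for length and GC content Lama5 (0.17, adjusted p = 0.0229) and Lama2 (0.25, adjusted p = 0.0484) were called.

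Lama3 and Lamb3, chains of an epithelial laminin of skin, were low. Lama3 had 5 and 4 counts with Cre and 2 and 2 counts with GFP and was not tested. Lamb3 had 20 and 26 counts with Cre and 14 and 6 counts with GFP, and its log2 fold change of 0.98 had a standard error of 0.38 (adjusted p = 0.123). The interval from 0.20 to 1.76 shows how little these counts fix its size. Lamc3, a gamma chain, had 4 and 1 counts with Cre and 4 and 5 counts with GFP and was not tested.

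**Figure D2:**
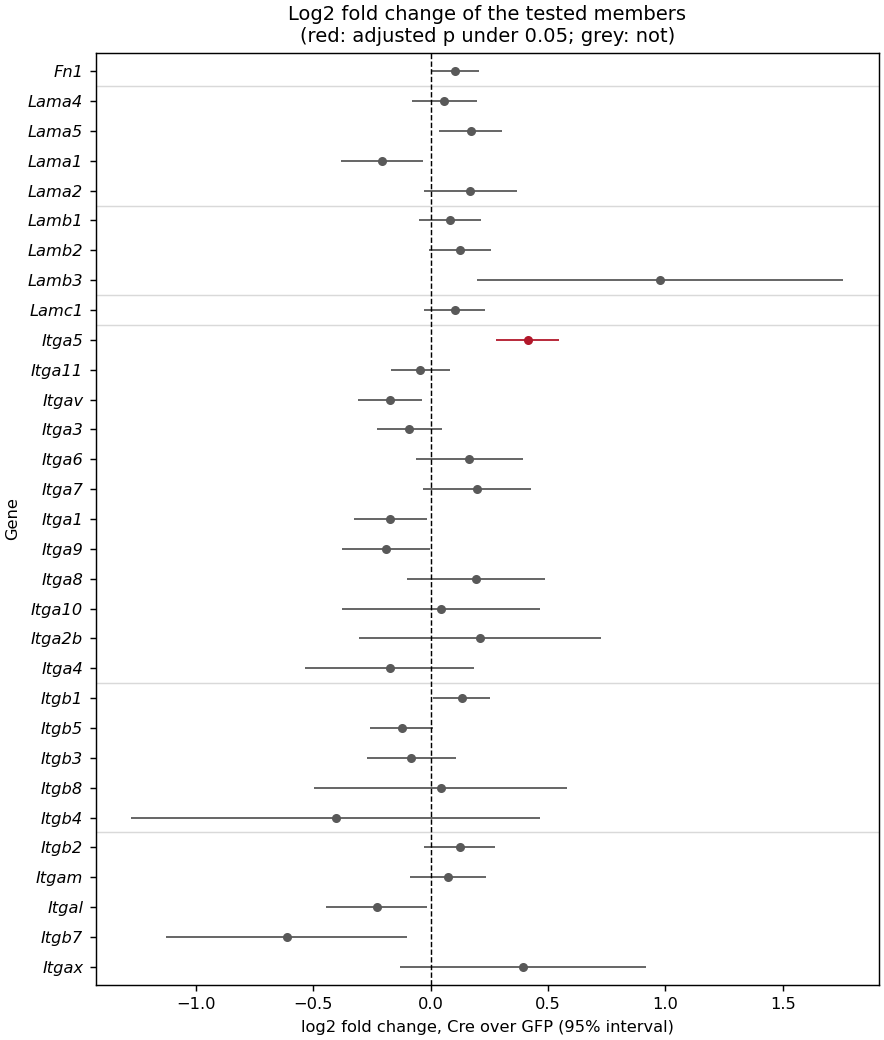
Log2 fold change (Cre over GFP) of the tested members with its 95% interval, not adjusted for the number of genes, ordered by class and level. Itga5, in red at 0.41, is the member past an adjusted p of 0.05; the other members with a mean of at least 10 CPM lie between -0.23 and 0.20.

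Among the receptors, Itga5 changed. The gene lies on the minus strand of chromosome 15 from 103344286 to 103366791 (GRCm38), and none of its exon bases are shared with another gene of GENCODE M21. It had 1285 and 1376 CPM in the Cre libraries, against 944 and 1055 CPM in the GFP libraries. Both Cre libraries were above both GFP libraries, and the gap between the groups (1285 over 1055) exceeded the gap within either. Means were 1331 ± 64.5 CPM with Cre and 999 ± 78.6 CPM with GFP (SD, n = 2 each), a 1.33-fold difference. The log2 fold change was 0.41 with a standard error of 0.07 and a 95% interval from 0.28 to 0.55 (adjusted p = 0.000109). DESeq2 gave 0.42 (adjusted p = 1.33e-08) and scaling by library size alone 0.45 (adjusted p = 0.00131). The call was lost without a low-count filter (0.42, adjusted p = 0.127) and without either GFP library, and the estimate stayed positive. It was 0.34 without GFP replicate 1 and 0.50 without GFP replicate 2. Both of these fits keep 1 GFP library and called few or no genes of the whole table. The lost call in them is therefore not particular to Itga5.

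**Figure D3:**
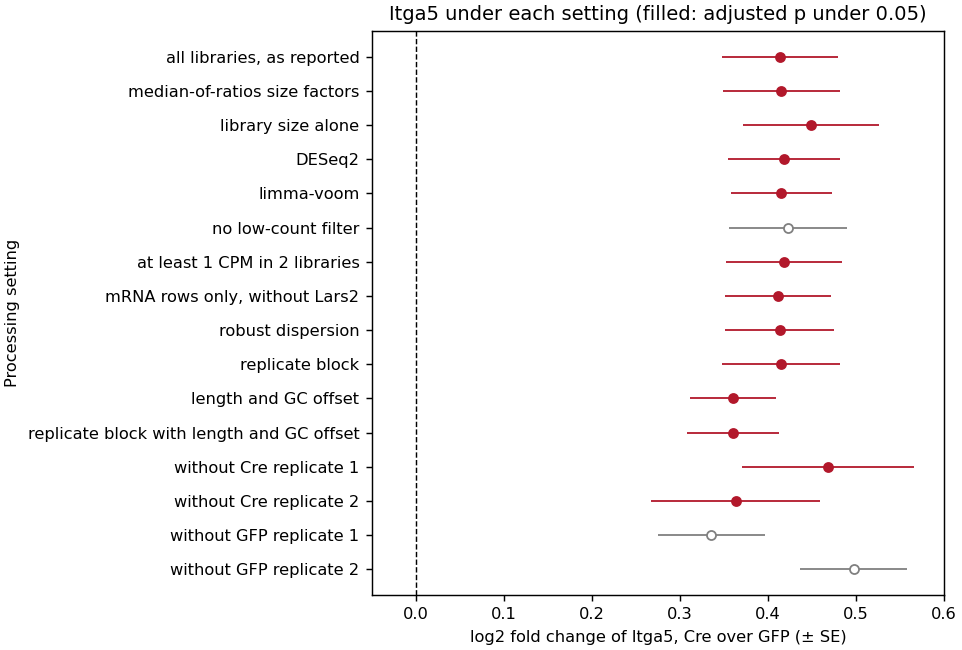
Log2 fold change of Itga5 (Cre over GFP) with its standard error under each processing setting; filled points have an adjusted p under 0.05. All 16 estimates lie between 0.34 and 0.50, and 3 of them, without the low-count filter and without either GFP library, miss the threshold.

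The alpha subunit nearest to Itga5 in level did not pass. Itga11, which with Itgb1 forms a receptor for fibrillar collagen on mesenchymal cells, lies on chromosome 9 from 62677855 to 62783979. It had 1019 and 1013 CPM with Cre, against 1051 and 1045 CPM with GFP (log2 fold change -0.04, standard error 0.06, adjusted p = 0.737). The interval, from -0.17 to 0.08, does not reach the lower end of that of Itga5. Per transcript length the ratio of Itga5 to Itga11 was 1.42 and 1.53 in the Cre libraries and 1.01 and 1.14 in the GFP libraries. This ratio is taken within each library and does not depend on how the libraries are scaled. With 2 libraries a group an exact permutation test cannot reach significance, so the ratio is given as a description.

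The share of Itga5 in the summed level of the 13 alpha subunits was 49.1% and 51.5% with Cre, against 40.7% and 43.3% with GFP, per transcript length. Itga11 made up 34.6% and 33.7% with Cre and 40.2% and 38.1% with GFP. Itgav followed with 9.84% and 8.46% in Cre and 11.7% and 11.2% in GFP, and Itga3 with 2.94% and 3.05% in Cre and 3.54% and 3.57% in GFP. The share of Itga5 was thus higher in both Cre libraries, and those of the other 3 were lower. A share falls when another member grows, so the lower shares are no separate result.

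**Figure D4:**
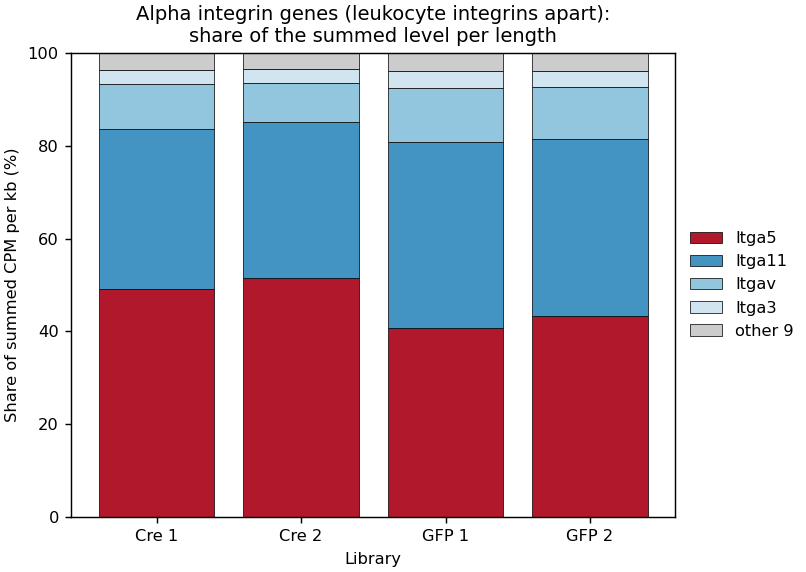
Share of each alpha integrin gene in the summed CPM per kb of the 13 alpha subunits, leukocyte integrins apart, in each library. Itga5 takes 49.1% and 51.5% of the Cre bars and 40.7% and 43.3% of the GFP bars.

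Upstream sequence is shown for Itga5, for Itga11, its neighbour in level, and for Itgb1, with which both proteins pair, to set the start of the gene that rose beside those of 2 that did not pass. The 250 bases before the RefSeq gene start (GRCm38.p6) are given 5′ to 3′ on the strand of the gene, with each GC box (GGGCGG or its reverse complement CCGCCC) in capitals. They cover chr15:103366792-103367041 (minus strand), chr9:62677605-62677854 (plus strand) and chr8:128685404-128685653 (plus strand).
Itga5: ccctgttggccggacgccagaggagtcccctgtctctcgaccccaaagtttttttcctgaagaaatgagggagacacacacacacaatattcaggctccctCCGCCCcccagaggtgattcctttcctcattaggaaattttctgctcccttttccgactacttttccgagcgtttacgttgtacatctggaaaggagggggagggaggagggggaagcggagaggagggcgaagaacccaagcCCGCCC
Itga11: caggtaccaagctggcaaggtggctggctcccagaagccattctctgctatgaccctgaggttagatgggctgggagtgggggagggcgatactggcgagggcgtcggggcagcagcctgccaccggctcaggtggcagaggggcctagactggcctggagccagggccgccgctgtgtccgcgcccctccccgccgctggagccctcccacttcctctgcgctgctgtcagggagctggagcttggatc
Itgb1: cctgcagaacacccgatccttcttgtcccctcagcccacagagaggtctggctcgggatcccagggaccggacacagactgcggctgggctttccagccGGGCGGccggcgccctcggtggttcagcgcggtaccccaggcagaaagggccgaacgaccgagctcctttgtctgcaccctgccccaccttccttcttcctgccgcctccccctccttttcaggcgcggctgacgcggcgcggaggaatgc
The Itga5 window holds 2 GC boxes, that of Itgb1 1 and that of Itga11 0, while 32.9% of 27025 mouse promoter windows of this length hold at least 1. Its GC content was 55.6%, against 68.4% for Itga11, 68.0% for Itgb1 and a median of 52.0% over all windows. On either strand, none of the 3 windows holds the TATA box letters TATAAA (13.0% of all windows), CCAAT (34.5%), the AP-1 letters TGANTCA (6.87%) or the E-box CACGTG (6.05%). These are matches of letters, which say nothing on binding. RefSeq windows were found for 23 of the 38 members.

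The other alpha integrins of matrix receptors did not pass. Itgav, whose protein binds vitronectin and latent TGF-beta, had 412 and 362 CPM with Cre and 435 and 437 CPM with GFP (log2 fold change -0.17, standard error 0.07, adjusted p = 0.119). Both Cre libraries lay below both GFP libraries, but the Cre libraries differed from each other by more than the gap. Itga3, a laminin receptor subunit, had 84.8 and 89.8 CPM with Cre and 90.4 and 95.6 CPM with GFP (-0.09, adjusted p = 0.480).

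Of the collagen receptor subunits, Itga1 had 43.4 and 43.8 CPM with Cre and 48.8 and 49.5 CPM with GFP, without overlap (log2 fold change -0.17, adjusted p = 0.185). Itga10, a subunit of cartilage cells, overlapped between the groups at 3.41 to 3.94 CPM, and 33.5% of its exon bases are shared with another gene on the same strand, so its count is uncertain. Itga2 had 8 and 4 counts with Cre and 3 and 2 counts with GFP and was not tested. Itga9, a tenascin receptor subunit, had 27.8 and 25.5 CPM with Cre and 32.0 and 28.7 CPM with GFP (-0.19, adjusted p = 0.235). The laminin receptor subunits Itga6 (0.17, adjusted p = 0.430) and Itga7 (0.20, adjusted p = 0.329) and the nephronectin receptor subunit Itga8 (0.19, adjusted p = 0.487) had positive values, all under 23 CPM in each library. Itga4, which binds fibronectin and VCAM-1 and is used by blood cells too (-0.18, adjusted p = 0.628), and the platelet subunit Itga2b (0.21, adjusted p = 0.696) overlapped between the groups.

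Among the beta subunits Itgb1, the partner of most alpha chains here, had by far the highest level. It lies on chromosome 8 from 128685654 to 128733579 and had 2514 and 2478 CPM with Cre, against 2260 and 2295 CPM with GFP. The Cre libraries were the higher ones and the groups did not overlap. The log2 fold change was 0.13 with a standard error of 0.06 and an interval from 0.01 to 0.25, and it did not pass (adjusted p = 0.195). With the correction for length and GC content it was 0.19 and passed (adjusted p = 0.00268). Itgb1 made up 85.4% and 83.9% of the summed beta subunit level per length with Cre and 82.3% and 82.1% with GFP. Per length, the ratio of Itga5 to Itgb1 was 0.442 and 0.480 in Cre and 0.361 and 0.397 in GFP, higher in both Cre libraries.

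Itgb5, a partner of Itgav for vitronectin, had 351 and 392 CPM with Cre and 397 and 412 CPM with GFP (log2 fold change -0.12, standard error 0.07, adjusted p = 0.288). The correction for length and GC content called it lower (-0.19, adjusted p = 0.00702). Itgb3, the other main partner of Itgav, had 29.2 and 29.5 CPM with Cre and 33.9 and 28.0 CPM with GFP, so that GFP replicate 1 stood apart (-0.08, adjusted p = 0.675). Itgb8, which with Itgav activates latent TGF-beta, had 2.00 to 3.04 CPM over the 4 libraries, and Itgb4, the subunit of epithelial hemidesmosomes, 0.553 to 0.989 CPM. Itgb6, of epithelia, had 2 and 1 counts with Cre and 3 and 4 counts with GFP and was not tested.

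The leukocyte integrins were present, and edgeR called none of the 5 that could be tested. DESeq2 called none either, but it gave no adjusted p for Itgax and Itgb7. In edgeR 2 (Itgal and Itgb7) had an unadjusted p under 0.05, as did 20.9% of all tested genes. Itgb2, the beta subunit common to myeloid and lymphoid integrins, had 78.1 and 71.1 CPM with Cre and 65.0 and 72.1 CPM with GFP (log2 fold change 0.12, standard error 0.07, adjusted p = 0.357). Itgam, its partner on macrophages and neutrophils, had 49.0 and 46.0 CPM with Cre and 43.5 and 46.9 CPM with GFP (0.07, adjusted p = 0.649). Both overlapped between the groups, and 68.7% of the exon bases of Itgam are shared with another gene on the same strand, so its count is uncertain. Itgal, the alpha subunit of a leukocyte receptor for ICAM-1, had 16.7 and 17.1 CPM with Cre and 19.2 and 20.5 CPM with GFP. Its log2 fold change was -0.23 (adjusted p = 0.204). Itgax, of dendritic cells and macrophages, had 2.49 and 2.90 CPM with Cre and 1.90 and 2.21 CPM with GFP (0.39, adjusted p = 0.407). Itgb7, of gut-homing lymphocytes, had 2.70 and 1.66 CPM with Cre and 3.35 and 3.32 CPM with GFP (-0.61, standard error 0.25, adjusted p = 0.146). Itgad and Itgae had at most 7 counts in any library and were not tested.

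Beside these, the 17 macrophage markers summed to 2806 and 2809 CPM with Cre and 2382 and 2484 CPM with GFP. Of them 5 were called higher (Cd68, Mrc1, Lyz2, C1qb and Tyrobp) and 1 lower (Emr1, the F4/80 antigen gene), and without either GFP library the counts were 0 and 0. With all 4 libraries, 3.74% of all tested genes were called higher and 3.22% lower. Lyz2 made up most of the sum, with 1685 and 1697 CPM with Cre and 1388 and 1409 CPM with GFP. Of the 17 markers, 9 had both Cre libraries above both GFP libraries, 1 had them below, and 7 overlapped. Ptprc, the gene of the common leukocyte antigen, had 37.4 and 32.2 CPM with Cre and 35.5 and 38.2 CPM with GFP. The 8 lymphocyte markers summed to between 0.761 and 1.24 CPM. In bulk RNA, a different number of macrophages and a different amount of RNA per macrophage cannot be told apart, and the part of these cells in the values of the integrins was not tested.

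Genes that work with the members were taken as 4 lists, chosen with earlier results of these data known. Over all tested genes 3.74% were called higher and 3.22% lower, with a median log2 fold change of -0.0045. Of 28 tested genes of the integrin adaptors and focal adhesions, 3 were called higher and 1 lower, with a median log2 fold change of 0.02. Zyx, the gene of the focal adhesion protein zyxin, had 600 and 657 CPM with Cre and 464 and 552 CPM with GFP (0.31, adjusted p = 0.00666). Lims2 encodes a partner of the integrin-linked kinase and had 72.7 and 73.6 CPM with Cre and 56.5 and 60.1 CPM with GFP (0.33, adjusted p = 0.00345). The tensins, which link integrins to actin, went both ways. Tns1 rose (0.27, adjusted p = 0.00803) and Tns3 fell (-0.25, adjusted p = 0.0217). The talin gene Tln1, whose protein switches integrins on, stood at 0.14 (adjusted p = 0.228) and the focal adhesion kinase gene Ptk2 at -0.0028 (adjusted p = 0.990), values given as examples chosen after they were seen.

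Among the partners of laminins in basement membranes, 4 of 17 tested genes were called higher and 2 lower, with a median of 0.08. The shares over all tested genes were 3.74% and 3.22%. Sparc, a collagen-binding matrix protein gene, had 5664 and 5914 CPM with Cre and 5006 and 4482 CPM with GFP (log2 fold change 0.29, adjusted p = 0.00284). Bcam, the gene of a cell surface receptor for Lama5, had 43.0 and 50.5 CPM with Cre and 34.7 and 37.8 CPM with GFP (0.37, adjusted p = 0.00663). Nid2, the gene of a nidogen that bridges laminin and collagen networks, had 115 and 113 CPM with Cre and 134 and 147 CPM with GFP (-0.30, adjusted p = 0.00336). The related calcium-binding matrix genes Smoc2 (0.24, adjusted p = 0.0281) and Smoc1 (-0.29, adjusted p = 0.0285) went opposite ways. Col18a1, named to complete the count, rose (0.37, adjusted p = 0.0322). The perlecan gene Hspg2 (0.02, adjusted p = 0.876) and Nid1 (0.14, adjusted p = 0.213), also named after their values were seen, did not pass.

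Other integrin ligands had 7 of 20 tested genes higher and 1 lower, with a median of 0.11. For all tested genes the shares were 3.74% higher and 3.22% lower, and the median was -0.0045. Postn, the gene of periostin, had 2828 and 2813 CPM with Cre and 1661 and 1467 CPM with GFP (log2 fold change 0.85, adjusted p = 1.54e-10). Edil3, whose protein binds integrins with Itgav, had 46.9 and 47.7 CPM with Cre and 32.4 and 30.7 CPM with GFP (0.58, adjusted p = 1.28e-05). Tgfbi (0.46, adjusted p = 0.00245) and the thrombospondin gene Thbs2 (0.28, adjusted p = 0.00361) rose, and Cyr61, the gene of a matricellular ligand, fell to 651 and 655 CPM with Cre, against 778 and 788 CPM with GFP (-0.26, adjusted p = 0.00708). The vitronectin gene Vtn had 0 counts in each library, which allows up to 0.207 to 0.255 CPM.

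Of 16 membrane partners of integrins, 2 were called higher and 2 lower, with a median of 0.07. Among all tested genes 3.74% were called higher and 3.22% lower. The tetraspanin genes Cd9 (log2 fold change 0.33, adjusted p = 0.00240) and Cd151 (0.25, adjusted p = 0.0154) rose. Cd151 binds laminin-binding integrins and had 324 and 332 CPM with Cre and 268 and 286 CPM with GFP. Sdc4, the syndecan that binds fibronectin beside the receptor of Itga5, fell to 73.9 and 78.5 CPM with Cre, against 91.9 and 89.4 CPM with GFP (-0.25, adjusted p = 0.0199). Nrp1, the gene of neuropilin, fell as well (-0.31, adjusted p = 0.00212). Without GFP replicate 2 none of the genes of the 4 lists was called, and without GFP replicate 1 only 1 of the other ligands was. Without Cre replicate 2 the lists had 0 and 0 (adaptors), 0 and 0 (basement membrane), 2 and 0 (other ligands) and 1 and 0 (membrane partners) genes higher and lower. Without Cre replicate 1 they had 2 and 0, 2 and 0, 4 and 0, and 0 and 1 in the same order.

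**Figure D5:**
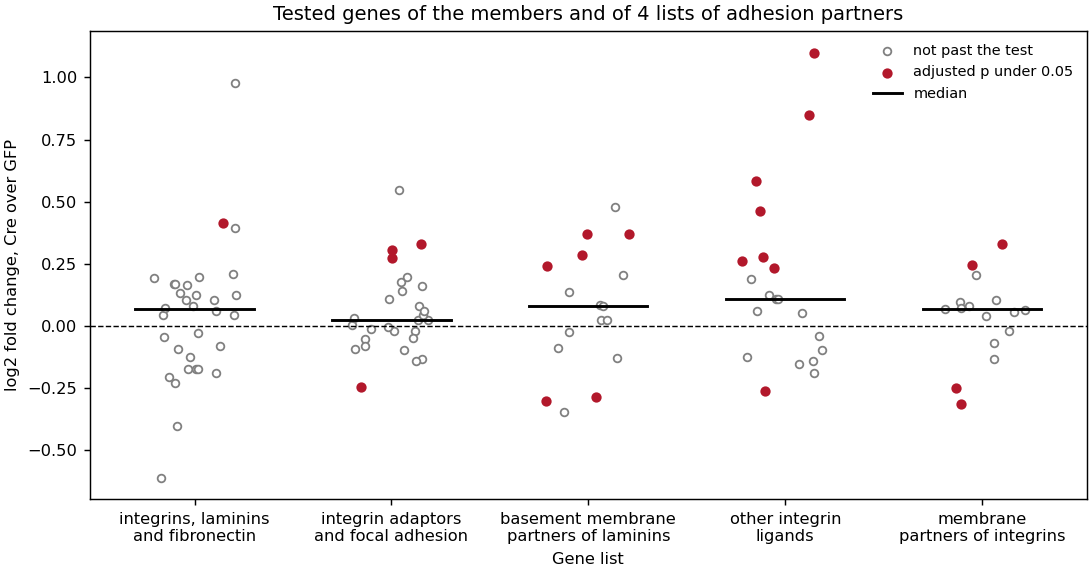
Log2 fold change (Cre over GFP) of the tested members and of the tested genes in the 4 lists of adhesion partners; each point is 1 gene, filled where the adjusted p is under 0.05, and the bar is the median. Filled points lie on both sides of 0 in each of the 4 lists, and the highest is Ibsp, a bone sialoprotein gene, at 1.10.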

How the data were processed

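RNA sequencing libraries were made with the Illumina TruSeq RNA kit from 1 µg of total RNA, per the labels' protocols. The authors deposited whole-number read counts per gene, without normalization, for 4 libraries, 2 with the Cre and 2 with the GFP virus. The submitters' processing notes name HISAT2 and the build GRCm38. The counting program, annotation and strand setting are not stated there or in the labels. Groups and replicate numbers are those of the labels.

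The deposited counts entered edgeR 4.0.16 (R 4.3.3) unchanged. The filter was filterByExpr (minimum count 10, minimum total count 15) and left 14483 genes. Scaling was by TMM, and the quasi-likelihood F-test had group as its only term. Benjamini-Hochberg adjustment ran over every tested gene, and 0.05 was the threshold. Standard errors are the log2 fold change divided by the square root of F, and the 95% intervals use the degrees of freedom of the test. The script was tested on simulated data. CPM are relative to TMM-scaled library sizes. Fold changes on the log2 scale are Cre over GFP. Levels per length divide CPM by the longest GENCODE M21 transcript, found for all 38 members. The values of 1 member are not reported here, and counts and sums include it. Positions and promoters are those of RefSeq on GRCm38.p6. The floor of 3 counts and the limit for 0 counts cover counting error only.

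Replicates differed by more than counting noise. Over genes with more than 200 counts in a pair, the median chi-square, relative to counting noise, was 1.78 for the Cre pair and 3.93 for the GFP pair. Pairs of a Cre with a GFP library ran from 3.43 (Cre 1 and GFP 1) to 5.88 (Cre 2 and GFP 2). The GFP libraries thus differed from each other by more than Cre 1 did from GFP 1. Members and lists were chosen with earlier results of these data known. Values per library were given for called members, the members of highest level per length in each class, Fn1 and leukocyte integrins of at least 1 CPM, and further members were added after their values were seen. In each partner list up to 5 called genes of smallest adjusted p were named. Alternatives were median-of-ratios scaling, library size alone, DESeq2 1.42.0, limma-voom (limma 3.58.1), no low-count filter, at least 1 CPM in 2 libraries, messenger RNA rows without Lars2, robust dispersion, the replicate number as a block, a loess offset on transcript length and GC content alone and with the block, and each library left out. Where 1 library remains in a group, it is taken to vary as the libraries of the other group do.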

Additional observations from a re-analysis of the deposited data

How the results depend on the processing

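The number of called genes over the whole table was 1009, 378 with DESeq2, 530 with scaling by library size alone and 30 without a low-count filter, and lay between 0 and 516 when a library was left out. Without GFP replicate 2 edgeR called 0 genes, with 2197 at an unadjusted p under 0.05. Among the integrin, laminin and fibronectin genes 1 was called higher and 0 lower. The low-count filter mattered here too, with 0 higher when it was dropped, and with a library left out the count lay between 0 and 1 higher and stayed at 0 lower. The offset for length and GC content gave 5 higher (Itga5, Fn1, Itgb1, Lama2 and Lama5) and 1 lower (Itgb5). The same offset with the replicate block also gave 5 and 1. The share of all tested genes called with the offset is not given here, so these counts are no result about the members. Why the offset adds calls was not tested. With a library left out, values changed sign for Itga10 (-0.041 to 0.15), Itgb8 (-0.28 to 0.31), Itgb3 (-0.21 to 0.068) and Itga4 (-0.39 to 0.057), none of which was called in any setting. Labels give no shared culture or day for equal replicate numbers, and the deviations of same-numbered libraries from their group means did not correlate (r = -0.00886). With the replicate block 829 genes were called, among them 1 member, Itga5 (0.41, adjusted p = 0.000308). For tested members under 10 CPM the standard errors ran from 0.14 to 0.43. Differences no larger than these standard errors were not detectable at this depth, and some well above them were not called either. Examples are Lamb3 (0.98, standard error 0.38, adjusted p = 0.123) and Itgb7 (-0.61, standard error 0.25, adjusted p = 0.146). The ligand gene Ibsp, at a mean of 2.40 CPM, was called (1.10, standard error 0.27, adjusted p = 0.00994). A missing call at such counts therefore does not exclude a change larger than the standard error.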
